A study of Mus musculus with 26 samples.

Results

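The genes described here are 31 genes that type I interferon switches on in most mouse cells. They were taken by symbol from a fixed list (Isg15, Isg20, Ifit1, Ifit2, Ifit3, Ifit3b, Mx1, Mx2, Oas1a, Oas2, Oas3, Oasl1, Oasl2, Rsad2, Usp18, Ifi44, Ifi35, Cmpk2, Rtp4, Ifih1, Dhx58, Xaf1, Stat2, Ifi27l2a, Zbp1, Herc6, Parp14, Parp9, Ifi205, Bst2 and Samd9l), a rule that uses symbols alone. The list itself was chosen with earlier results of these data known. All 31 were found among the 55416 genes of the count tables, and all 31 passed the filter on low counts in each kind of material.

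The study sequenced polyadenylated RNA from C57BL/6 mice whose lungs held metastases after B16F10 cells, a melanoma line of the same strain, were injected into a vein. One arm received propranolol, a blocker of β-adrenoceptors, and the other was left untreated; all mice of both arms carried the tumour cells. There were 5 untreated and 5 propranolol libraries of whole lung, 4 and 4 of monocytes sorted from lung by flow cytometry, and 4 and 4 of CD4 T cells taken from lung with magnetic beads, 26 libraries in all. Dose, duration, age and sex are not given in the sources used here, nor is it stated that each library is a different mouse. The p-values therefore rest on the spread among these libraries, which may be technical.

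Type I interferons are secreted proteins that bind the receptor made of Ifnar1 and Ifnar2. The kinases Jak1 and Tyk2 then activate the transcription factor Stat2, which enters the nucleus in a complex with Irf9 and binds the interferon-stimulated response element, a pair of GAAA-type repeats, in the promoters of their target genes. The targets include effectors that block the RNA, translation or release of viruses, sensors of foreign nucleic acid that amplify the response, and brakes such as Usp18. Monocytes and macrophages are known for strong responses, and many of these genes also have a basal level that low constitutive signalling maintains.

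The response element was looked for in the promoters, since it is the sequence through which the pathway is known to act. RefSeq promoter windows (mouse build GRCm38.p6, 250 bases before the gene start) were at hand for 21 of the 31 members. A match to GAAA, any 2 bases and GAAA again, on either strand, was present in 10 of the 21, or 47.6%: Isg15, Ifit1, Ifit3, Ifit3b, Oas1a, Oas3, Rsad2, Stat2, Ifi205 and Bst2. Of all 27025 genes with a window 3.46% held such a match. A match is a description of the letters and was not tested as a binding site, and no match says only that these letters are not in the window. The stretches of the first 6 of these members, in the order of the list, are shown 5′ to 3′ in the direction of the gene, with the matches in capitals (overlapping matches run together).
Isg15 (chr4:156200845-156200926, minus strand): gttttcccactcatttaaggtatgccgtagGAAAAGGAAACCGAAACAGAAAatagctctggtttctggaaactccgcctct
Ifit1 (chr19:34640755-34640843, plus strand): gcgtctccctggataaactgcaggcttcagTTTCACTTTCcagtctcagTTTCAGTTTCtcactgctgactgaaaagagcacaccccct
Ifit3 (chr19:34583343-34583446, plus strand): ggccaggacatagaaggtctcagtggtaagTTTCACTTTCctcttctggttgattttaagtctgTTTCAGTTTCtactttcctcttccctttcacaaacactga
Ifit3b (chr19:34607739-34607842, plus strand): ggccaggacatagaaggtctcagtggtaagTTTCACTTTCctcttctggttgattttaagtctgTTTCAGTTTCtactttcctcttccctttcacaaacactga
Oas1a (chr5:120907526-120907575, minus strand): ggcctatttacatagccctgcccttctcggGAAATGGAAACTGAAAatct
Oas3 (chr5:120777695-120777764, minus strand): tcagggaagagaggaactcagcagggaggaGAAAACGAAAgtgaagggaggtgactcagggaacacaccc

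Isg15 held 3 overlapping matches on the strand of the gene, between 56 and 78 bases before the start. In Ifit1, Ifit3 and Ifit3b the matches lay on the opposite strand, so that they read as TTTC repeats, with 2 in each. The stretches of Ifit3 and Ifit3b were the same in all 104 bases. Reads of such closely related copies can be assigned to either gene, and the counts of Ifit3 and Ifit3b are uncertain in that respect.

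Levels are given as CPM, the counts of a gene relative to the size of its library, after TMM scaling within a kind of material. Untreated levels compared between materials, sums over genes, and levels of cell type markers and Malat1 are instead CPM of total counts. Log2 differences between materials come from TMM-scaled fits and need not match ratios of those levels. Changes are log2 ratios of propranolol over untreated with their standard error (SE). A gene was called changed at a Benjamini-Hochberg adjusted p under 0.05 over all genes tested, from edgeR's quasi-likelihood test. Levels of different genes are not compared, because counts depend on the length of the transcript. Whether the groups of a gene overlap is given only as a description of its values. The share of all genes without overlap was not counted.

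Total counts ran from 29650148 to 47618634 in lung, from 36277687 to 48306925 in the libraries labelled monocytes and from 17625672 to 42484125 in the CD4 T cell libraries. In lung the summed level of 12 melanocyte genes was 14509 to 21510 CPM without and 1003 to 9281 CPM with propranolol, and all 12 fell. The libraries labelled monocytes held monocyte markers, with Cd14 at a mean of 673 CPM in the untreated ones, but also endothelial genes (17 genes, 10041 to 10230 CPM without and 7280 to 7362 CPM with propranolol) and melanocyte genes (3866 to 4594 and 4854 to 7021 CPM). They fell into close pairs: libraries 1 and 2, and 3 and 4, of each group differed by a chi-square of 3.52 to 5.22 per gene and the other pairs by 12.2 to 35.4. The CD4 T cell libraries held Cd4 and Cd3e, but also 12 B cell genes, summed to 9795 to 11249 CPM without and 9770 to 11047 CPM with propranolol. Among the propranolol CD4 T cell libraries, 479 genes differed over 2-fold between libraries 1 and 2, and libraries 3 and 4 lay between those values for 99.2% and 98.1% of these genes. The results of the monocyte and CD4 T cell libraries are therefore also given with the close pairs summed and without libraries 3 and 4, 2 choices made after seeing the data.

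In untreated libraries, most members stood higher in the libraries labelled monocytes than in whole lung. Of the 31, 25 were higher and 1 lower, with a median log2 difference of 0.81, where 65.4% of all genes tested were called (31.9% higher and 33.6% lower) and the median was -0.04. The summed members reached 807 to 1189 CPM of total counts in untreated lung, 1384 to 1452 CPM in untreated monocyte libraries and 1520 to 1562 CPM in untreated CD4 T cell libraries. Oas3, which makes the short oligoadenylates that activate RNase L, showed the widest gap, with 4.41 ± 1.66 CPM in lung (SD, n = 5) and 33.3 ± 2.97 CPM in monocyte libraries (SD, n = 4), a log2 difference of 3.09 ± 0.22 (adjusted p = 5.44e-07). Stat2, the transducer, was at 46.9 ± 7.85 CPM in lung and 98.1 ± 2.97 CPM in monocyte libraries, a log2 difference of 1.24 ± 0.10 (adjusted p = 1.28e-06). Ifit2 was the 1 member lower in monocyte libraries, at 31.9 ± 0.903 against 53.0 ± 6.36 CPM (log2 difference -0.56 ± 0.08, adjusted p = 1.04e-04). Ifit3, Ifit3b, Rsad2, Usp18 and Bst2 were the 5 members not called. The untreated monocyte libraries also differed from untreated lung in other cell types. The 17 endothelial genes summed to 10041 to 10230 CPM in them and 2187 to 4058 CPM in lung. The 12 melanocyte genes summed to 3866 to 4594 CPM and 14509 to 21510 CPM. The part of these cell types in the members' levels was not tested.

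Against lung, the untreated CD4 T cell libraries had a split pattern, with 15 members higher, 8 lower and a median of 0.24 (83.9% of all genes called, 39.9% higher and 44.0% lower, median -0.07). The 2 kinds of library come from different count tables, and the table and the material cannot be told apart. Zbp1, a sensor of Z-form nucleic acid, was at 97.8 ± 3.71 CPM in CD4 T cell and 10.2 ± 2.63 CPM in lung libraries (log2 difference 3.15 ± 0.16), and Oas3 was higher by 3.35 ± 0.22. The lower members included the RNA-binding Ifit3 (-2.14 ± 0.21) and Ifit3b (-2.81 ± 0.35), the radical SAM enzyme Rsad2, known as viperin (-1.97 ± 0.12), the membrane tether Bst2 (-1.82 ± 0.10) and Ifi44 (-1.76 ± 0.15). Usp18 is the protease that removes Isg15 from proteins and dampens the receptor. Its means were similar, at 21.6 ± 6.18, 21.5 ± 1.58 and 21.9 ± 2.42 CPM of total counts in lung, monocyte and CD4 T cell libraries. Neither difference from lung was called.

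**Figure D1:**
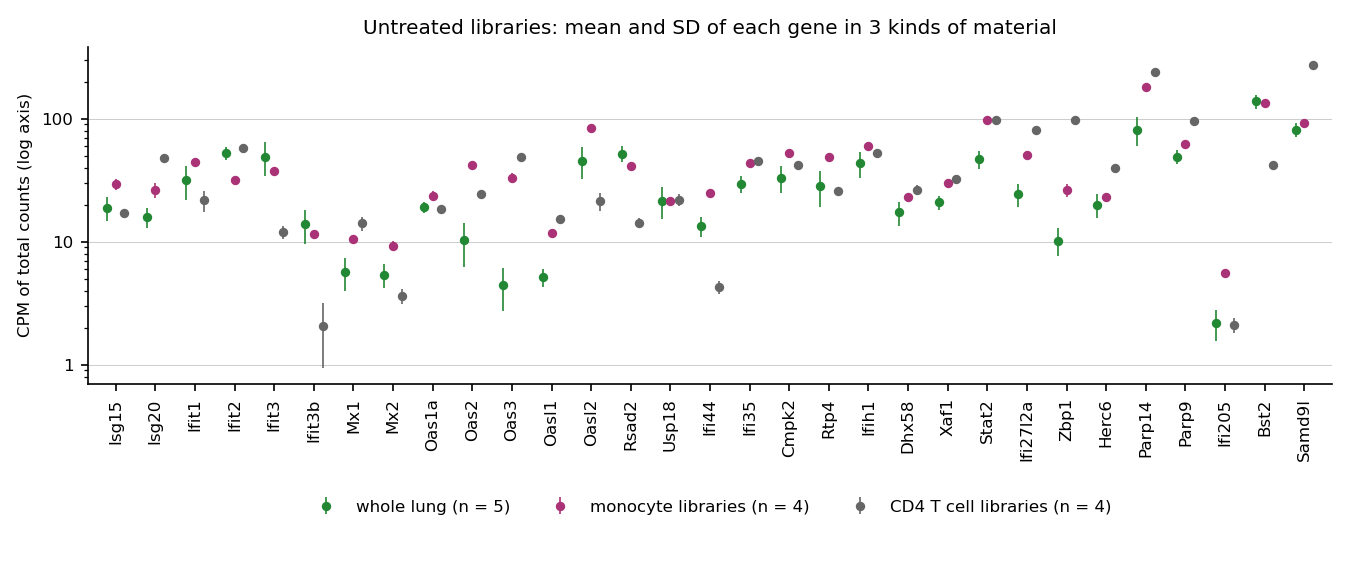
Mean level of each member in the untreated libraries, in CPM of total counts on a log axis, with bars of 1 SD over 5 lung, 4 monocyte and 4 CD4 T cell libraries. Oas3 and Zbp1 sit lowest in lung, and Ifit3, Ifit3b, Rsad2, Ifi44 and Bst2 sit lowest in the CD4 T cell libraries.

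In whole lung with propranolol, 11 members rose and 3 fell, a median log2 change of 0.23 where the median of all genes was 0.03. The signal transducer Stat2 and the oligoadenylate synthetases Oas2, Oas3 and Oasl2 were among those that rose, whereas Rsad2, Oas1a and Bst2 fell. The share called, 45.2%, is to be read against 70.8% of all genes called in this comparison (35.5% higher and 35.3% lower). Summed, the members went from 807 to 1189 CPM of total counts without to 1035 to 1518 CPM with propranolol, ranges that overlap. None of the 11 rises was called with the melanocyte level as a covariate. That fit called 6.08% of all genes (3.49% higher and 2.59% lower). The melanocyte sums of the arms did not overlap, so the fit can hardly separate the arm from the melanocyte level. In bulk RNA, fewer cells of a type and less RNA per cell cannot be told apart.

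Stat2 was at 43.6, 40.8, 57.5, 53.5 and 54.0 CPM in the untreated lungs and 79.3, 87.7, 94.4, 90.4 and 70.9 CPM in the propranolol lungs, a change of 0.76 ± 0.11 (adjusted p = 2.32e-04). All 5 propranolol lungs lay above all 5 untreated ones. Oas3 was at 3.73, 2.74, 7.14, 4.57 and 5.20 CPM without and 11.8, 14.4, 12.6, 9.03 and 6.75 CPM with propranolol, and at 1.22 ± 0.26 (adjusted p = 0.00194) it was the 1 member that rose over 2-fold. Its groups overlapped through propranolol lung 5, which lay below untreated lung 3. Zbp1 was at 8.21, 10.4, 14.8, 11.7 and 9.29 CPM and 20.3, 19.1, 23.1, 16.9 and 13.1 CPM, a rise of 0.77 ± 0.18 (adjusted p = 0.00315), with propranolol lung 5 again the lowest of its group and below untreated lung 3.

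Parp14, an ADP-ribosyltransferase, was at 71.3, 59.2, 105, 106 and 91.3 CPM in untreated and 129.7, 152, 174, 154 and 111 CPM in propranolol lungs, a rise of 0.74 ± 0.17 (adjusted p = 0.00286). Xaf1, a pro-apoptotic binding partner of Xiap, was at 19.9, 19.8, 23.2, 25.8 and 22.7 CPM and 28.3, 33.6, 33.4, 30.9 and 25.8 CPM, a rise of 0.45 ± 0.10 (adjusted p = 0.00252). Neither gene overlapped between the groups, although the gap was narrow in both. The dynamin-like GTPase Mx1, which laboratory strains such as C57BL/6 carry in a defective form, was at 4.25, 4.66, 7.79, 7.89 and 5.71 CPM without and 8.33, 9.85, 13.1, 9.10 and 7.22 CPM with propranolol and rose by 0.65 ± 0.21 (adjusted p = 0.0178). Here 2 untreated lungs reached into the propranolol range.

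The 3 members that fell did so without overlap. Rsad2 was at 51.9, 46.5, 60.6, 65.4 and 52.9 CPM in untreated and 29.4, 24.1, 39.1, 23.4 and 28.1 CPM in propranolol lungs, a change of -0.94 ± 0.14 (adjusted p = 2.84e-04). Bst2, which tethers budding virus to the cell surface, was at 137, 172, 136, 164 and 128 CPM and 92.1, 92.8, 99.2, 88.0 and 75.2 CPM, a change of -0.72 ± 0.10 (adjusted p = 1.91e-04). Oas1a went from 20.8, 18.4, 19.0, 23.6 and 20.1 CPM to 12.3, 12.6, 14.6, 11.3 and 10.6 CPM, a change of -0.73 ± 0.11 (adjusted p = 2.23e-04). In each of them the highest propranolol lung was below the lowest untreated one.

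The ubiquitin-like protein gene Isg15 was not called in lung, at 16.9, 15.9, 21.4, 26.3 and 20.5 CPM without and 16.2, 16.1, 21.5, 16.2 and 11.1 CPM with propranolol (-0.32 ± 0.18, adjusted p = 0.129). Ifit1, which binds foreign RNA caps, stood at 27.2, 21.7, 41.2, 45.0 and 32.5 CPM and 35.1, 34.4, 45.9, 31.4 and 23.6 CPM (0.02 ± 0.21, adjusted p = 0.929). Usp18 stood at 21.0, 14.0, 26.5, 30.6 and 22.8 CPM and 24.9, 27.5, 34.8, 27.8 and 20.7 CPM (0.24 ± 0.19, adjusted p = 0.282). In all 3 the groups overlapped. Of the other called members, Isg20, an exonuclease, rose by 0.57 ± 0.16, Oas2 by 0.86 ± 0.23, Oasl2 by 0.75 ± 0.19, Ifi205, of the nucleic acid binding Ifi200 family, by 0.61 ± 0.25 and Samd9l by 0.28 ± 0.10. None of the 4 Ifit genes was called in lung, and the remaining members not called had changes between -0.14 (Ifit2) and 0.44 (Ifi44).

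Several measures of the tissue moved with the members in lung. Besides the melanocyte genes, which fell, all 12 T cell, 10 CD8 T and NK cell and 12 B cell genes rose, with median log2 changes of 1.32, 1.46 and 1.85, and 15 of 17 endothelial and 13 of 14 alveolar type 2 genes rose with medians of 0.77 and 0.69. Of the monocyte genes, 6 of 10 classical and 7 of 9 non-classical ones rose (2 non-classical ones fell), with medians of 0.80 and 1.07, and their sums went from 2733 to 3922 CPM to 4463 to 5872 CPM and from 430 to 1008 CPM to 1195 to 1684 CPM, without overlap. Of the conventional dendritic cell genes 8 of 9 rose and 1 fell (median 1.12), and 8 of 9 tested neutrophil genes rose (median 2.22). Among plasmacytoid dendritic cell genes, a cell type known for producing interferon, 3 of 10 rose, and their sum was 206 to 288 CPM without and 324 to 437 CPM with propranolol. Malat1, a nuclear RNA, had means of 539 and 2015 CPM. Their part in the members' changes was not tested for single lists, but 2 other fits bear on the melanocyte and resident cells. With libraries scaled on 56 markers of resident lung cells, the median of all genes moved from 0.03 to -0.66 and that of the members from 0.23 to -0.44, with 1 member higher (Oas3, 0.57) and 18 lower. Of all genes, 11.2% were called higher and 56.3% lower under this scaling. With the melanocyte level as a covariate no member was called higher and 2 were called lower, Bst2 at -0.86 and Oas1a at -0.81. Of all genes, 3.49% were called higher and 2.59% lower in that fit. Oas1a and Bst2 were thus called lower in all 3 fits, while no member was called higher in all 3.

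**Figure D2:**
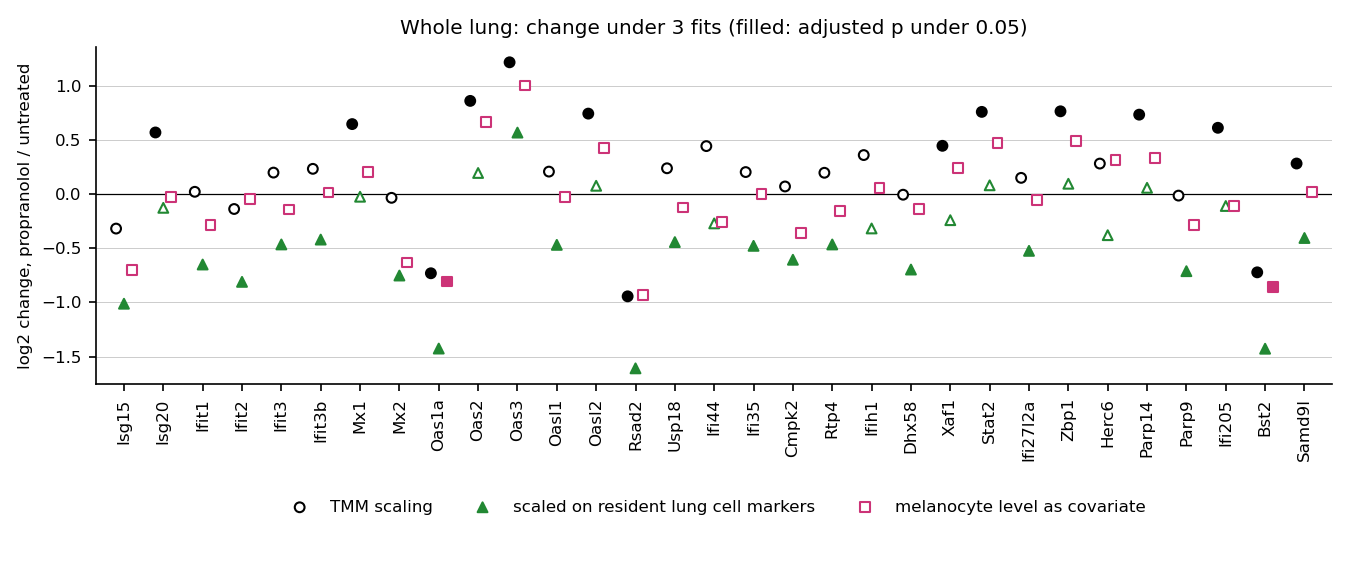
Log2 change of each member in whole lung (5 propranolol against 5 untreated libraries) under TMM scaling, under scaling on resident lung cell markers and with the melanocyte level as a covariate, with filled symbols for an adjusted p under 0.05. Oas1a and Bst2 are filled below 0 in all 3 fits, whereas the rises seen under TMM lose their call in at least 1 other fit. Of all genes, 70.8%, 67.5% and 6.08% were called in the 3 fits, in that order.

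In the libraries labelled monocytes, 10 members rose and 5 fell, with small changes throughout: the median was 0.16, the extremes were -0.36 and 0.70, and none reached 2-fold. Zbp1, the Ifit genes Ifit1, Ifit3 and Ifit3b, Isg15 and Rtp4 were among those that rose. Stat2, Cmpk2, Ifi44, Oas2 and Bst2 fell. The share called was 48.4% against 30.5% of all genes (14.3% higher and 16.1% lower). With the close libraries summed, which leaves 2 against 2, Zbp1 was the 1 member called. That fit called 6.67% of all genes (1.98% higher and 4.69% lower).

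Zbp1 was at 32.3, 26.7, 25.0 and 23.9 CPM without and 45.0, 43.5, 44.1 and 42.8 CPM with propranolol, a rise of 0.70 ± 0.08 (adjusted p = 1.17e-04). The groups were well apart, and with the close libraries summed the change was 0.70 (adjusted p = 0.0213). Ifit1 was at 50.6, 45.6, 43.3 and 40.3 CPM and 80.7, 78.4, 61.2 and 53.3 CPM, a rise of 0.61 ± 0.13 (adjusted p = 0.00407). The propranolol libraries 1 and 2 were high and the close pair 3 and 4 lower, and the lowest of them was just above the highest untreated library. With the pairs summed the change of Ifit1 was 0.60 (adjusted p = 0.0814).

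Ifit3 was at 41.7, 39.4, 38.3 and 33.1 CPM without and 49.9, 51.1, 48.4 and 47.4 CPM with propranolol, a rise of 0.37 ± 0.07 (adjusted p = 0.00211). Isg15 was at 26.8, 29.9, 33.0 and 30.1 CPM and 40.2, 39.8, 34.3 and 33.5 CPM, a rise of 0.30 ± 0.08 (adjusted p = 0.0172). In Isg15 the gap between the groups was narrow, with untreated library 3 next to propranolol library 4. Rtp4, a receptor-transporting protein that binds RNA, was at 49.7, 50.8, 49.8 and 50.2 CPM and 60.5, 56.5, 54.8 and 55.3 CPM, a rise of 0.18 ± 0.04 (adjusted p = 0.0111). Ifi205 was at 5.98, 5.29, 6.15 and 5.07 CPM and 6.93, 7.41, 7.31 and 7.27 CPM, a rise of 0.36 ± 0.09 (adjusted p = 0.0129). The untreated values of Rtp4 were tightly grouped, and its groups were apart although the rise was small.

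Stat2 fell, from 97.5, 102, 101 and 99.0 CPM to 86.1, 85.0, 84.1 and 82.4 CPM (-0.24 ± 0.04, adjusted p = 4.64e-04). Cmpk2, a mitochondrial nucleotide kinase whose gene lies beside Rsad2, went from 53.5, 54.5, 54.7 and 52.2 CPM to 38.7, 39.3, 45.6 and 44.1 CPM (-0.36 ± 0.06, adjusted p = 0.00107). Ifi44 went from 25.9, 26.2, 23.5 and 25.4 CPM to 19.4, 21.2, 19.0 and 20.3 CPM (-0.34 ± 0.06, adjusted p = 0.00172). The groups of these 3 genes did not overlap, and the untreated libraries of each were tightly grouped. Oas2 fell from 46.2, 44.0, 39.8 and 41.1 CPM to 30.6, 32.6, 36.0 and 36.6 CPM (-0.33 ± 0.07, adjusted p = 0.00495). Bst2 fell from 137, 138, 139 and 134 CPM to 112, 122, 126 and 132 CPM (-0.16 ± 0.05, adjusted p = 0.0356), a small change in which propranolol library 4 nearly met the untreated ones.

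Mx1 stood at 11.5, 11.8, 9.79 and 9.83 CPM without and 11.5, 10.9, 14.4 and 13.5 CPM with propranolol and was not called (0.24 ± 0.11, adjusted p = 0.123). Rsad2 stood at 43.8, 44.8, 38.0 and 40.6 CPM and 42.7, 43.8, 48.4 and 49.6 CPM (0.14 ± 0.07, adjusted p = 0.143). Usp18 stood at 22.4, 22.3, 23.4 and 19.3 CPM and 23.0, 22.9, 21.5 and 23.1 CPM (0.05 ± 0.07, adjusted p = 0.616). All 3 overlapped between the groups. The other members that rose were Ifi27l2a (0.26 ± 0.07), Parp9 (0.19 ± 0.05), Ifit3b (0.29 ± 0.09) and the RNA sensor Dhx58 (0.29 ± 0.09), and those not called lay between -0.15 (Ifi35) and 0.24 (Mx1).

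Other cell types' genes moved in these libraries too. All 17 endothelial genes fell, from a sum of 10041 to 10230 CPM to 7280 to 7362 CPM, and all 12 B cell genes rose, from 353 to 636 CPM to 899 to 1028 CPM. The summed 12 T cell genes were at 106, 197, 411 and 481 CPM in untreated libraries 1 to 4 and at 968, 852, 316 and 247 CPM in propranolol libraries 1 to 4, so the close pairs of libraries differed in them. The 9 non-classical monocyte genes summed to 3229 to 3323 CPM without and 3415 to 3724 CPM with propranolol. Their part in the members' changes was not tested.

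The CD4 T cell libraries had the widest changes, and they went both ways. With propranolol 7 members rose and 13 fell, 4 and 2 of them by more than 2-fold, and the median was -0.24 where that of all genes was -0.04. Isg15, Ifi205, Ifi27l2a, Rsad2, Oasl2, Bst2 and Rtp4 rose, and the Ifit genes Ifit1, Ifit2 and Ifit3, Mx1, Oas2, Oas3, Usp18, Cmpk2, Dhx58, Xaf1, Zbp1, Herc6 and Samd9l fell. The share called, 64.5%, is close to the 60.0% of all genes called (30.1% higher and 29.9% lower). Summed in CPM of total counts, the members went from 1520 to 1562 CPM to 1042 to 1159 CPM, without overlap. These sums are not TMM scaled, and most of the fall lies in that. The mean of Isg15, for one, was 17.0 CPM of total counts and 14.9 TMM-scaled CPM without propranolol. With propranolol it was 50.8 and 58.1 CPM. Without propranolol libraries 3 and 4, 7 rose and 9 fell, where 43.8% of all genes were called (22.7% higher and 21.0% lower).

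Isg15 was at 14.5, 15.5, 13.7 and 15.8 CPM without and 49.8, 67.5, 58.8 and 56.4 CPM with propranolol, a rise of 1.96 ± 0.10 (adjusted p = 1.99e-08). Ifi205 was at 1.88, 2.16, 1.82 and 1.52 CPM and 20.8, 13.1, 18.7 and 20.8 CPM, a rise of 3.32 ± 0.19 (adjusted p = 3.29e-08), the largest of any member in the 3 kinds of material. Both were far outside the spread of their untreated libraries. Rsad2 was at 10.6, 12.97, 13.1 and 13.1 CPM and 23.8, 41.3, 32.9 and 29.9 CPM, a rise of 1.36 ± 0.15 (adjusted p = 1.52e-05). Propranolol library 2 was the highest for Isg15 and Rsad2 and the lowest for Ifi205.

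Ifi27l2a, a small membrane protein gene, was at 67.6, 72.4, 71.7 and 71.1 CPM without and 109, 146, 119 and 118 CPM with propranolol, a rise of 0.80 ± 0.08 (adjusted p = 8.24e-06). Oasl2, a relative of the oligoadenylate synthetases, was at 16.0, 22.9, 17.2 and 18.6 CPM and 57.7, 31.4, 42.8 and 38.8 CPM, a rise of 1.19 ± 0.17 (adjusted p = 1.12e-04). Bst2 was at 37.6, 37.6, 36.0 and 36.3 CPM and 42.6, 66.6, 49.7 and 49.1 CPM, a rise of 0.50 ± 0.12 (adjusted p = 0.00376). None of the 3 overlapped between groups, and the propranolol libraries spread more than the untreated ones in each.

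Among the members that fell, Ifit2 was at 49.8, 51.1, 49.6 and 50.7 CPM without and 16.6, 16.5, 19.1 and 17.8 CPM with propranolol, a change of -1.52 ± 0.08 (adjusted p = 1.53e-08). All 4 propranolol libraries were close together, far below the untreated ones. Herc6, the ligase that attaches Isg15 to proteins in mice, was at 35.2, 31.5, 37.7 and 34.1 CPM and 17.0, 9.73, 13.1 and 12.0 CPM, a change of -1.41 ± 0.15 (adjusted p = 7.80e-06). Samd9l was at 254, 229, 244 and 222 CPM and 169.7, 126, 161 and 169 CPM, a change of -0.60 ± 0.09 (adjusted p = 1.65e-04). The lowest value of Herc6 and of Samd9l was in propranolol library 2.

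Xaf1 was at 28.7, 29.8, 28.5 and 27.1 CPM without and 21.4, 16.3, 20.0 and 17.3 CPM with propranolol, a change of -0.60 ± 0.10 (adjusted p = 3.00e-04). Dhx58 was at 20.5, 24.7, 24.2 and 23.5 CPM and 14.2, 19.0, 13.7 and 13.5 CPM, a change of -0.63 ± 0.12 (adjusted p = 0.00103). Mx1 was at 14.1, 11.6, 10.4 and 13.2 CPM and 7.26, 3.87, 7.08 and 7.42 CPM, a change of -0.93 ± 0.20 (adjusted p = 0.00161). The groups did not overlap in any of the 3, and library 2 was the lowest propranolol library for Xaf1 and Mx1 and the highest for Dhx58. Usp18 was at 22.1, 18.8, 18.8 and 17.1 CPM and 13.7, 10.4, 13.7 and 14.3 CPM, a change of -0.55 ± 0.12 (adjusted p = 0.00240). Ifit1 was at 13.8, 18.8, 22.2 and 21.2 CPM and 13.6, 13.8, 13.1 and 12.5 CPM, a change of -0.53 ± 0.14 (adjusted p = 0.00667), with untreated library 1 inside the propranolol range. Stat2 was not called, at 81.0, 91.7, 86.6 and 85.1 CPM and 87.2, 49.4, 70.2 and 71.3 CPM (-0.31 ± 0.13, adjusted p = 0.0685), with propranolol library 2 far below the rest.

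The other members that fell were Ifit3 (-0.79 ± 0.16), Oas3 (-0.40 ± 0.09), Cmpk2 (-0.68 ± 0.17), Oas2 (-0.82 ± 0.25) and Zbp1 (-0.28 ± 0.11), and Rtp4 rose by 0.28 ± 0.08. Without propranolol libraries 3 and 4, 16 of the 20 calls were kept, and those of Ifit1 (adjusted p = 0.0795), Oas2 (0.109), Cmpk2 (0.0564) and Zbp1 (0.222) were lost. The members not called lay between -0.54 (Ifit3b, at 0.793 to 3.14 CPM without and 1.13 to 1.40 CPM with propranolol) and 0.30 (Ifi44).

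**Figure D3:**
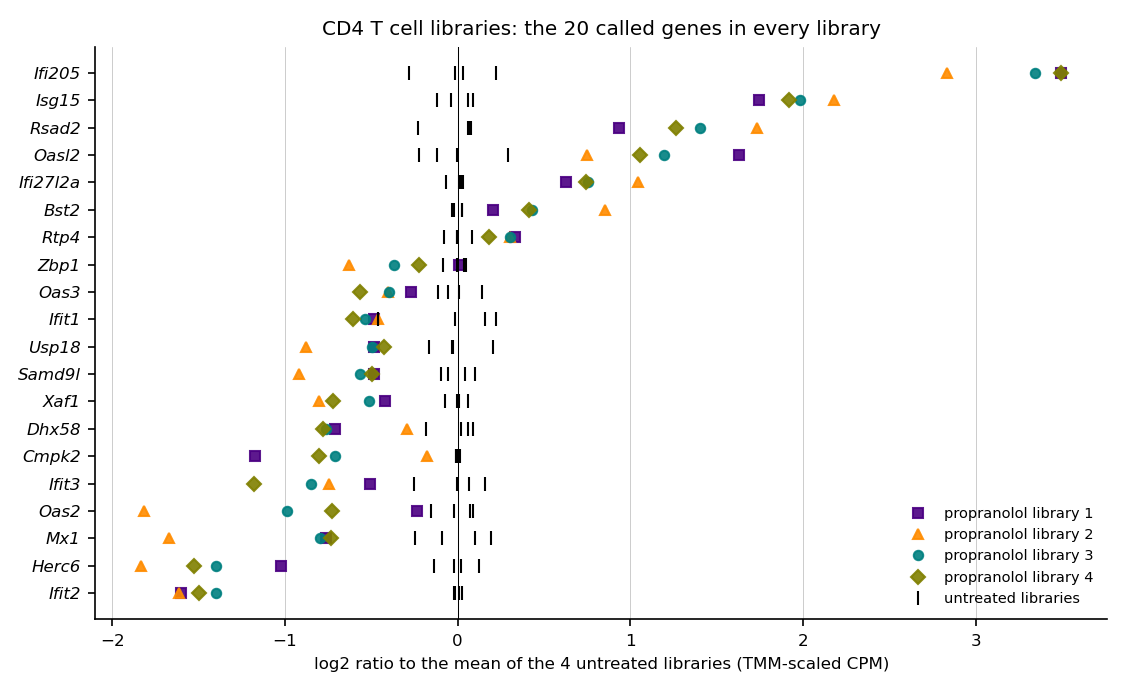
The 20 called members in the CD4 T cell libraries, as the log2 ratio of each library to the mean of the 4 untreated libraries (ticks: untreated, symbols: propranolol libraries 1 to 4). Isg15, Ifi205, Rsad2 and Oasl2 lie far to the right and Ifit2 and Herc6 far to the left, and library 2 is at one end of its group for many genes. Of all genes, 60.0% were called in this comparison.

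Genes of other cell types moved in the CD4 T cell libraries as well. All 12 B cell genes were called higher after TMM scaling, with a median of 1.86, although their summed CPM of total counts overlapped between the groups. In CPM of total counts, Cd4 itself was at a mean of 644 ± 4.90 without and 458 ± 55.5 with propranolol (SD, n = 4). After TMM scaling none of the 12 T cell genes, Cd4 among them, was called lower, and 9 were called higher (median 0.41). Of 10 classical monocyte genes 7 rose and 1 fell, and their sum went from 1037 to 1166 CPM to 1362 to 1447 CPM. Single genes of that cell type went both ways, with Cd14 at means of 1.38 and 66.8 CPM and Ccr2 at 70.1 and 46.7 CPM. All 10 neutrophil genes rose, from a sum of 212 to 291 CPM to 882 to 1283 CPM. The sum of 9 conventional dendritic cell genes went from 285 to 302 CPM to 1125 to 1207 CPM, but 5 of them rose and none fell (median 0.45). That of 9 non-classical monocyte genes went from 1688 to 1798 CPM to 4014 to 4871 CPM, with 5 higher and 1 lower (median 0.69). The 8 plasma cell genes, at 10491 to 10824 CPM without, ran from 6510 to 15150 CPM with propranolol. Malat1 had means of 3513 ± 259 CPM without and 692 ± 405 CPM with propranolol (SD, n = 4), with 188 CPM in propranolol library 2. The part of these in the members' changes was not tested.

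**Figure D4:**
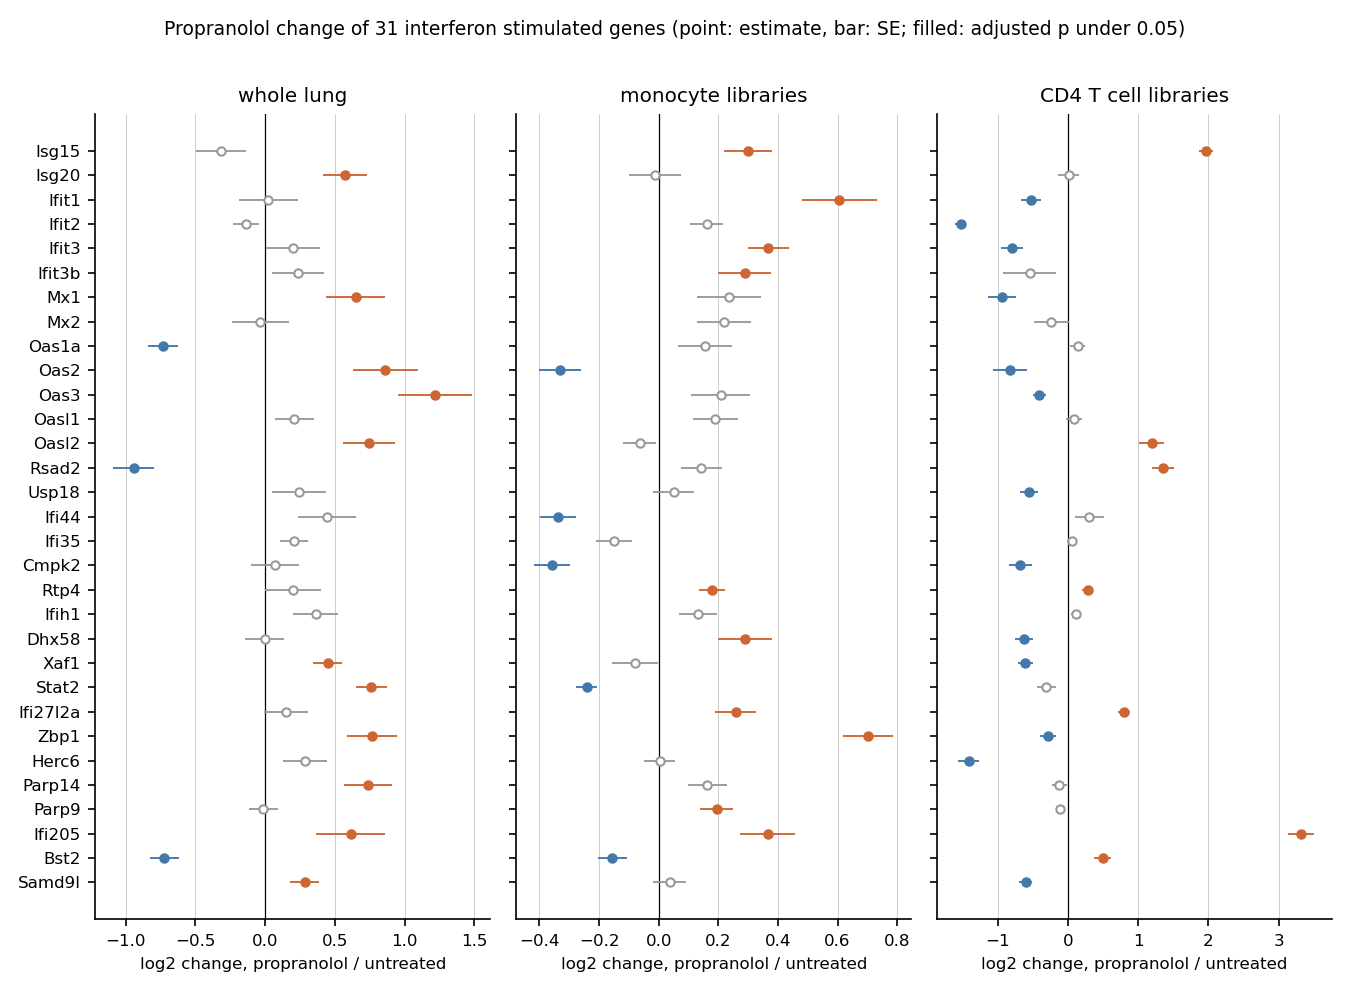
Log2 change with propranolol (± SE) of the 31 members in whole lung, monocyte and CD4 T cell libraries, on axes that differ in range between panels, with filled points for an adjusted p under 0.05. The called points number 11 higher and 3 lower in lung under TMM scaling (1 and 18 when scaled on resident markers), 10 and 5 in the monocyte libraries, and 7 and 13 in the CD4 T cell libraries. Of all genes, 70.8%, 30.5% and 60.0% were called in lung under TMM scaling, monocyte and CD4 T cell libraries. Resident scaling called 11.2% of all genes higher and 56.3% lower in lung.

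Across the 3 kinds of material, 4 members were called in all of them, 14 in exactly 2, 9 in exactly 1 and 4 in none. Ifi205 was the 1 member called in the same direction in all 3, always higher. Its lung call was near the threshold (adjusted p = 0.0419). That call was lost under resident scaling (-0.11), with the melanocyte covariate (-0.11) and in several fits without 1 library. Its monocyte call was lost with the close libraries summed. In 12 members at least 1 pair of materials had opposite calls: 8 between lung and CD4 T cell libraries, 5 between monocyte and CD4 T cell libraries and 2 between lung and monocyte libraries. Of all genes tested in both materials of a pair, 26.9%, 10.6% and 16.7% had opposite calls. The same direction was called in both for 2, 6 and 3 members of these pairs, and for 19.5%, 10.4% and 7.94% of all genes. The opposite calls depended on the treatment of the libraries. With the close monocyte libraries summed, Zbp1 was the 1 member left with opposite calls in monocyte and CD4 T cell libraries, and none was left in lung and monocyte libraries. Without CD4 T cell propranolol libraries 3 and 4, 3 of the 5 and 6 of the 8 stayed opposite, and Zbp1 was not among them. Of the 8 between lung and CD4 T cell libraries, 3 stayed opposite under resident scaling of lung and 1, Bst2, with the melanocyte covariate. Of all genes, 6.67% were called with the close monocyte libraries summed and 43.8% without CD4 T cell libraries 3 and 4. In lung 67.5% were called under resident scaling and 6.08% with the covariate.

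Of the 4 Ifit genes, 3 were called higher in monocyte libraries, 3 lower in CD4 T cell libraries and none in lung under TMM scaling, where 30.5%, 60.0% and 70.8% of all genes were called. Under resident scaling of lung, Ifit1 (-0.65), Ifit3 (-0.46) and Ifit3b (-0.42) were called lower, as were 56.3% of all genes. None of the 3 monocyte calls was kept with the close libraries summed, a fit that called 6.67% of all genes. That of Ifit1 in CD4 T cell libraries was lost without libraries 3 and 4, where 43.8% of all genes were called. The 5 Oas and Oasl genes had 3 higher and 1 lower in lung, 1 lower in monocyte and 1 higher and 2 lower in CD4 T cell libraries. The 3 Oas genes higher in lung were called under TMM scaling, and 1 of them, Oas3, also under resident scaling.

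The difference between the changes was tested directly as an interaction. In CD4 T cell against lung libraries, 5 members had a higher and 17 a lower change, with a median difference of -0.74, where 56.2% of all genes were called (24.0% higher and 32.2% lower) and their median was -0.26. Herc6 (-1.86 ± 0.25, adjusted p = 3.86e-06) and Oas2 (-1.86 ± 0.39, adjusted p = 5.40e-04) had the most negative differences. Ifi205 (2.52 ± 0.35), Rsad2 (2.13 ± 0.23) and Isg15 (2.10 ± 0.25) had the most positive ones. With lung scaled on resident markers the counts were 11 and 5, and without CD4 T cell propranolol libraries 3 and 4 they were 6 and 11, so the balance turned with the scaling of lung. Resident scaling moved the median of all genes to 0.56. Leaving out the 2 libraries called 47.9% of all genes.

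In CD4 T cell against monocyte libraries, which use the same CD4 T cell libraries, 7 members had a higher and 13 a lower change, with a median difference of -0.28 (47.7% of all genes called, 23.8% higher and 24.0% lower, median -0.08). Ifit2 differed by -1.67 ± 0.09 (adjusted p = 7.11e-11), Ifit1 by -1.12 ± 0.20 (adjusted p = 1.78e-04) and Ifit3 by -1.14 ± 0.16 (adjusted p = 1.55e-05). Isg15, by contrast, rose more in CD4 T cell libraries, by 1.68 ± 0.13 (adjusted p = 9.54e-09). With the close monocyte libraries summed, 17 of these 20 calls were kept, where 34.4% of all genes were called.

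In monocyte against lung libraries 3 members had a higher and 11 a lower change (57.4% of all genes called, 25.2% higher and 32.3% lower, median -0.17), with a median difference of -0.32. Stat2, which rose in lung and fell in monocyte libraries, differed by -1.13 ± 0.14 (adjusted p = 1.38e-05), and Oas2 by -1.32 ± 0.28 (adjusted p = 7.04e-04). Oas1a (0.76 ± 0.15), Rsad2 (0.97 ± 0.18) and Bst2 (0.45 ± 0.14), the members that fell in lung, had the higher change in monocyte libraries. Scaling lung on resident markers gave 18 higher and 1 lower, with the median of all genes at 0.63. With the close monocyte libraries summed 3 were higher and 3 lower, and 6 of the 14 calls were kept (Oas1a, Oas2, Rsad2, Xaf1, Stat2 and Bst2). Of all genes, 41.9% were called in that fit. Leaving out 1 library gave 3 to 6 higher and 7 to 11 lower, and without untreated lung 1 the counts were 6 and 7. The share of all genes called without single libraries was not counted.

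**Figure D5:**
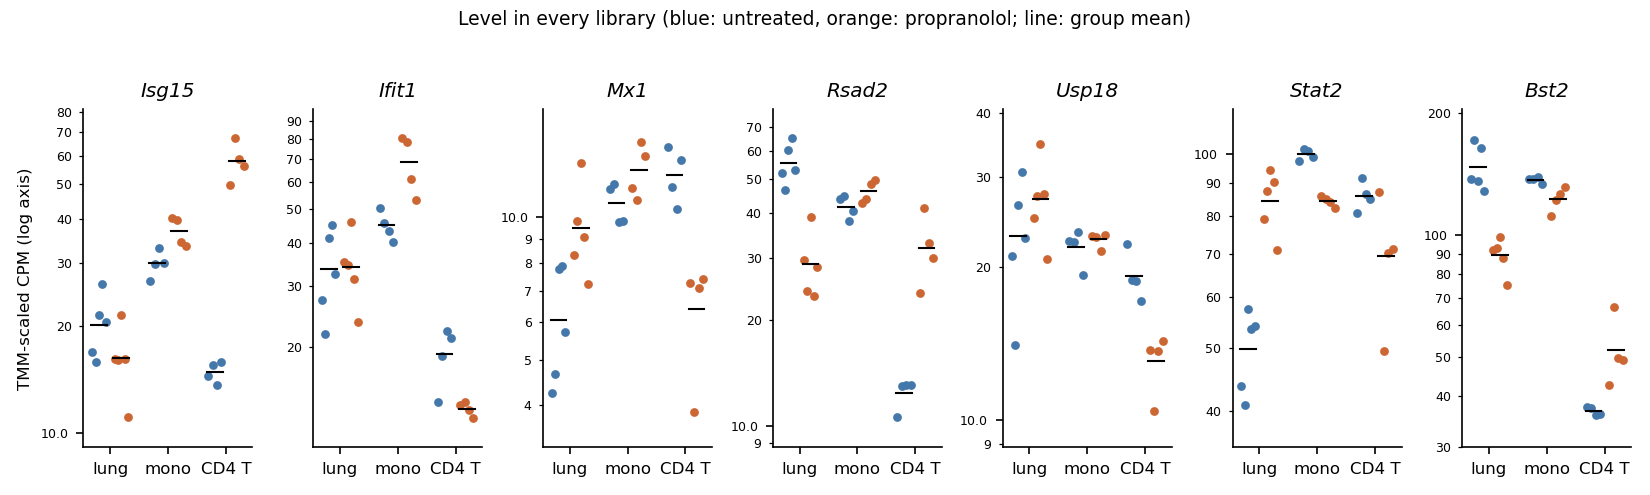
TMM-scaled CPM of 7 members in every library of whole lung, monocyte (mono) and CD4 T cell (CD4 T) material on log axes that differ between genes, with untreated libraries in blue, propranolol libraries in orange and lines at group means. Isg15 rises from 13.7 to 15.8 CPM to 49.8 to 67.5 CPM in CD4 T cell libraries, Stat2 separates the groups upward in lung and downward in monocyte libraries, and Rsad2 separates them downward in lung and upward in CD4 T cell libraries.

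The interferon genes themselves were close to undetected. Of 19 type I and III interferon genes, 10 had any count in lung, 10 in monocyte and 6 in CD4 T cell libraries, and none had more than 29 counts over all libraries of a material. Ifnb1, the interferon that many cells make first, had no count in the 4 untreated CD4 T cell libraries and 0.188 to 0.262 CPM in the 4 propranolol ones, too few counts for a test. Ifng, the type II interferon of T and NK cells, was at 1.98, 1.88, 2.66 and 2.76 CPM without and 21.1, 17.8, 25.4 and 20.9 CPM with propranolol in CD4 T cell libraries, a rise of 3.18 ± 0.17 (adjusted p = 2.05e-08), with the groups far apart. In monocyte libraries Ifng went from 0.333 ± 0.107 CPM to 0.727 ± 0.126 CPM (SD, n = 4), a rise of 1.13 ± 0.31 (adjusted p = 0.0182).

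Of 9 receptor and signalling genes, 7 rose and 1 fell in CD4 T cell libraries, 5 rose and 3 fell in lung, and 2 rose and none fell in monocyte libraries, where 60.0%, 70.8% and 30.5% of all genes were called. In lung the counts were 0 and 5 under resident scaling and 0 and 0 with the melanocyte covariate, and in monocyte libraries no call was left with the close libraries summed. These fits called 67.5% (11.2% higher and 56.3% lower), 6.08% and 6.67% of all genes. The type I receptor chain Ifnar1 was at 149, 145, 153 and 154 CPM without and 398, 275, 321 and 339 CPM with propranolol in CD4 T cell libraries, a rise of 1.15 ± 0.10 (adjusted p = 1.07e-06). In lung it fell from 163 ± 18.6 CPM to 114 ± 2.67 CPM (SD, n = 5; -0.51 ± 0.08, adjusted p = 2.82e-04), and in monocyte libraries it was not called (0.03 ± 0.05). The partner chain Ifnar2 was called in none of the 3, with changes of 0.01, -0.03 and 0.12.

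The chains of the type II receptor rose more than 4-fold in CD4 T cell libraries, Ifngr1 by 2.37 ± 0.05 and Ifngr2 by 2.75 ± 0.08. In lung Ifngr1 rose by 0.73 ± 0.13 and Ifngr2 fell (-0.51 ± 0.07). Of the kinases, Jak1 rose by 0.75 ± 0.06 and Tyk2 fell (-0.66 ± 0.07) in CD4 T cell libraries. Irf9 rose in CD4 T cell libraries (0.54 ± 0.06) and in lung (0.30 ± 0.10), and was not called in monocyte libraries (-0.08 ± 0.04).

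Among 16 genes of nucleic acid sensing and interferon induction, 6 rose and 4 fell in lung, 8 rose and none fell in monocyte libraries, and 10 rose and 5 fell in CD4 T cell libraries, to be read against the same shares of all genes (70.8%, 30.5% and 60.0%). Resident scaling gave 3 higher and 12 lower in lung, the melanocyte covariate 1 and 0, and summing the close monocyte libraries left 1 of the 8. The shares of all genes called in these fits were 67.5% (11.2% higher and 56.3% lower), 6.08% and 6.67%. In lung the endosomal RNA receptor Tlr7 rose by 1.38 ± 0.17, the DNA receptor Tlr9 by 1.27 ± 0.20 and the transcription factor Irf5 by 0.98 ± 0.15, and the adaptor Traf3 fell (-0.54 ± 0.09). In monocyte libraries the kinase Ikbke (0.41 ± 0.06), Irf7 (0.31 ± 0.05), Tlr9 (0.60 ± 0.12) and Irf5 (0.39 ± 0.08) rose. In CD4 T cell libraries Irf5 (1.69 ± 0.09), Trim25 (0.91 ± 0.06) and Traf3 (0.63 ± 0.06) rose, and Tmem173, the adaptor known as Sting, fell (-1.02 ± 0.09).

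A list of genes that restrain the response had 8 tested members. In lung 2 rose and 3 fell, in monocyte libraries 3 rose and none fell, and in CD4 T cell libraries 7 rose and none fell (70.8%, 30.5% and 60.0% of all genes called). Under resident scaling 6 were lower in lung and none higher, with the melanocyte covariate none was called there, and 1 monocyte call was left with the close libraries summed. Of all genes, these fits called 67.5% (11.2% higher and 56.3% lower), 6.08% and 6.67%. Without propranolol libraries 3 and 4, 5 were called higher in CD4 T cell libraries, where 43.8% of all genes were called. The CD4 T cell rises included the receptor inhibitors Socs1 at 1.62 ± 0.10 and Socs3 at 1.19 ± 0.08 and the phosphatase Ptpn2 at 1.35 ± 0.06. Atf3 rose by 6.78 ± 0.16, from 1.09 to 1.99 CPM to 142 to 202 CPM; it is a general stress factor and does not act on interferon signalling alone. Usp18, the brake among the members, fell in the same libraries.

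Of 40 further interferon stimulated genes, 23 rose and 6 fell in lung (median 0.59), 14 rose and 1 fell in monocyte libraries (median 0.08), and 12 rose and 17 fell in CD4 T cell libraries (median 0.02). The shares of all genes called were 70.8%, 30.5% and 60.0%. The lung counts moved to 10 higher and 15 lower under resident scaling (median -0.07) and to 2 and 1 with the melanocyte covariate, and 5 monocyte genes were called, all higher, with the close libraries summed. In these fits 67.5% (11.2% higher and 56.3% lower), 6.08% and 6.67% of all genes were called. In lung the Ifi200 family genes Ifi213 (2.26 ± 0.25) and Ifi209 (1.54 ± 0.20) and the Isg15-activating enzyme Uba7 (1.28 ± 0.15) rose, and Lgals3bp fell (-0.76 ± 0.08). The monocyte libraries had rises of Epsti1 (0.79 ± 0.05), Ifi209 (0.71 ± 0.05), Sp100 (0.28 ± 0.04) and Pml (0.29 ± 0.04). In CD4 T cell libraries the chemokine Cxcl10 went from 3.47, 3.44, 4.46 and 3.66 CPM to 211, 228, 206 and 213 CPM, a rise of 5.82 ± 0.10 (adjusted p = 3.93e-12), with all propranolol libraries close together. The GTPase Irgm1 (1.70 ± 0.05), the guanylate-binding protein Gbp3 (1.97 ± 0.08) and Ifi204 (1.93 ± 0.12), which type II interferon is also known to induce, rose as well. As with the 31 members, the further genes went both ways in the CD4 T cell libraries.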

How the data were processed

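Raw gene counts were deposited in 2 tables, one of lung and monocyte and one of CD4 T cell libraries. STAR 2.7.9, featureCounts and Subread 2.0.3 with build GRCm39 are named in the submitters' processing notes. Annotation and strand setting are not given in the sources used here; overlapping and antisense genes cannot be told apart. Each comparison used the libraries of its own groups, the filterByExpr rule (minimum count 10), TMM scaling and edgeR 4.0.16 (quasi-likelihood test, R 4.3.3), and p-values were adjusted by Benjamini-Hochberg over all genes tested. Differences between materials were interactions in 1 fit of 4 groups. Alternatives were DESeq2 1.42.0 (size factors and test), limma-voom (limma 3.58.1), no filter or a mean of at least 5 CPM, the replicate block, resident marker scaling, the melanocyte covariate, a joint fit, total counts alone and each library left out. Scripts were tested on simulated data. The members and lists were chosen with earlier results of these data known. Values in every library are given for Isg15, Ifit1, Mx1, Rsad2, Usp18, Stat2 and Bst2 and for up to 5 called members with the smallest p in each direction per comparison. Of each pathway list up to 4 called genes with the smallest p are named; ligands, receptors and transducers are named regardless, except that 2 genes of these lists are not reported here. Depth was 17625672 to 48306925 counts per library.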

Additional observations from a re-analysis of the deposited data

Results flagged for a closer look

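In 15 cases a member was called in opposite directions in a pair of materials, and the difference of the log2 changes was then past the threshold in the interaction test. Cases picked for opposite calls are bound to pass it nearly always, so this restates the calls and adds no support. In monocyte minus lung these were Oas2 (-1.32) and Stat2 (-1.13). In CD4 T cell minus lung they were Mx1 (-1.75), Oas2 (-1.86), Oas3 (-1.79), Xaf1 (-1.23), Zbp1 (-1.22) and Samd9l (-1.06) with the lower, and Rsad2 (2.13) and Bst2 (1.04) with the higher change in CD4 T cell libraries. In CD4 T cell minus monocyte they were Ifit1 (-1.12), Ifit3 (-1.14), Dhx58 (-0.90), Zbp1 (-0.97) and Bst2 (0.66).

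Single libraries stood apart from the rest of their group in 8 of 186 groups of values, where chance at 1 in 20 gives 9.3. In the CD4 T cell libraries, propranolol library 2 was the lowest for Mx1 (3.87 CPM) and Parp9 (74.2 CPM) and the highest for Dhx58 (19.0 CPM), propranolol library 1 was the highest for Ifih1 (53.2 CPM) and untreated library 1 the lowest for Rsad2 (10.6 CPM). In lung, untreated library 4 was the highest for Dhx58 (25.4 CPM) and untreated library 2 the lowest for Herc6 (13.6 CPM). In the monocyte libraries, propranolol library 3 was the lowest for Usp18 (21.5 CPM).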

How the results depend on the processing

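Of 2764 values of single members under an alternative, 2527 kept direction and side of the threshold, 107 lost and 48 gained a call, 16 reversed with a call in at least 1 of the settings compared, and 66 not called in either changed sign (32 of these with 1 library left out). The cause was not tested for any of them. Of all genes in lung, 67.5% were called under resident scaling (11.2% higher and 56.3% lower) and 6.08% with the melanocyte covariate. In monocyte libraries 6.67% were called with the close libraries summed. In whole lung, scaling on resident lung cell markers gave 1 member higher and 18 lower, and reversed Isg20 (-0.13), Ifit1 (-0.65), Ifit3 (-0.46), Ifit3b (-0.42), Mx1 (-0.023), Oasl1 (-0.47), Usp18 (-0.44), Ifi35 (-0.48), Cmpk2 (-0.61), Rtp4 (-0.46), Xaf1 (-0.24), Ifi27l2a (-0.52), Ifi205 (-0.11) and Samd9l (-0.40); Ifi44 (-0.27), Ifih1 (-0.32) and Herc6 (-0.38), not called in either, also changed sign. The melanocyte covariate left 0 higher and 2 lower and reversed Isg20 (-0.023) and Ifi205 (-0.11), and 8 members not called in either changed sign: Ifit1 (-0.28), Ifit3 (-0.14), Oasl1 (-0.028), Usp18 (-0.12), Ifi44 (-0.26), Cmpk2 (-0.36), Rtp4 (-0.16) and Ifi27l2a (-0.055). In the monocyte libraries, 1 fit together with lung gave 1 higher and 0 lower, as did summing the close libraries, and the replicate block gave 5 higher and 4 lower. The replicate numbers did not pair the libraries (correlations of same-numbered libraries -0.08 to 0.49 in lung, -0.43 to -0.21 in monocyte and -0.03 to 0.03 in CD4 T cell libraries), and the replicate block moved no other count by over 1.5 times. For monocyte minus lung, no filter gave 6 higher and 7 lower, resident scaling of lung 18 and 1, and summed close libraries 3 lower. For CD4 T cell minus lung, resident scaling of lung gave 11 higher and 5 lower, and leaving out CD4 T cell propranolol libraries 3 and 4 gave 11 lower. By total counts alone, 2 members were lower in untreated monocyte libraries than in lung. The share of all genes called was not counted for the joint fit, the replicate block, no filter or total counts alone. Nor was it counted for the differences under resident scaling.

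Leaving out 1 library at a time gave 9 to 14 higher and 3 to 4 lower in lung, 7 to 12 and 4 to 5 in monocyte, and 7 to 8 and 12 to 14 in CD4 T cell libraries. The differences ran from 3 to 6 higher and 7 to 11 lower for monocyte minus lung, 5 to 6 and 15 to 20 for CD4 T cell minus lung, and 7 to 8 and 12 to 14 for CD4 T cell minus monocyte. The untreated levels gave 24 to 26 and 1 to 2 for monocyte over lung and 15 to 16 and 7 to 9 for CD4 T cell over lung. In these fits the share of all genes called was not counted. The type I and III interferon genes had too few counts for a test at this depth.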
